A study of Mus musculus with 9 samples.

Results

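Genes for 4 secreted signalling proteins (Gcg, Apln, Cxcl14 and Fam132a) and for 1 receptor of a peptide hormone (Sstr1) were followed across mouse lenses at 15.5 days post conception. They were picked by symbol, with the knockout result of these libraries in view, and all 5 were found among the 190 genes tabulated for knockout and control lenses; 2 of them, Gcg and Fam132a, were also among the 7676 genes tabulated for inbred wild type lenses. Zeb2, the gene for the zinc finger repressor Sip1, had been targeted in the conditional knockout (cKO) lenses, which were Sip1 flox/flox with the MLR10Cre transgene on a mixed strain background. MLR10Cre carries a modified alpha A-crystallin promoter that drives Cre recombinase in the lens. The mixed wild type lenses were Sip1 flox/flox with no Cre on the mixed background, so both of these groups shared the floxed alleles. They differed in the Cre transgene as well as in Sip1, which cannot be told apart in these libraries. The inbred wild type lenses were of strain C57Bl/6<har>. Every group had 3 libraries, each described by the labels as an independent biological replicate pooling 30 lenses.

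Glucagon, the glucagon-like peptides, apelin and somatostatin are secreted peptides that act through G protein-coupled receptors, as most chemokines do, and adipokines of the C1q and tumour necrosis factor related (CTRP) family circulate as multimers. Gcg encodes proglucagon, which prohormone convertases cut into glucagon in pancreatic alpha cells and into glucagon-like peptides in gut and brain. Apln encodes apelin, the ligand of the receptor Aplnr, best known from the heart and from sprouting blood vessels. Cxcl14 is a chemokine made by many epithelia, Fam132a (now C1qtnf12) encodes adipolin, an adipokine of the CTRP family, and Sstr1 is an inhibitory receptor for somatostatin and cortistatin. The ocular lens has no vessels of its own but lies at this age inside the hyaloid vascular net.

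Promoters of members that were high in the same libraries are shown so that a reader can see what lies in front of them. The set of RefSeq (GRCm38.p6) promoters used here held 3 of the 5 genes, and the 250 bases before the annotated start are printed on the strand of the gene. Capitals mark CACCT, the core to which Sip1 is known to bind, and TATAAA, the TATA box, on either strand (AGGTG and TTTATA on the other).
Gcg, chr2:62483654-62483903, minus strand: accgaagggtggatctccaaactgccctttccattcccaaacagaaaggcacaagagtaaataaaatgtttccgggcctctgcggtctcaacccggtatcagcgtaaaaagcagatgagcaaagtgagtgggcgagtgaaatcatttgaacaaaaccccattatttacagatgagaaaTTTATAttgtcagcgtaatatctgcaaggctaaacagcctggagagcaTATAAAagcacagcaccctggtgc
Apln, chrX:48034854-48035103, minus strand: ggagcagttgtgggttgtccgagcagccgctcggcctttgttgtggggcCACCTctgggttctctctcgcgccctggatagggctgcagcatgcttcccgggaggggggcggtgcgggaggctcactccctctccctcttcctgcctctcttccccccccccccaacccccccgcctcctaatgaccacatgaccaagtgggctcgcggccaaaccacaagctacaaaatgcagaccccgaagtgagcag
Cxcl14, chr13:56296552-56296801, minus strand: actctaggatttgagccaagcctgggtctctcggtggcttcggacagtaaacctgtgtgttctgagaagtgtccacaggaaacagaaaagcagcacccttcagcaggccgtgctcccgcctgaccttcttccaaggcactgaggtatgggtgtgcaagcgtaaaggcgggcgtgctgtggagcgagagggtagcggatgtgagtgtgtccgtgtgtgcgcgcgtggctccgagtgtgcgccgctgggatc
The Gcg window had TATAAA beginning at position -24 from the start and its reverse complement, TTTATA, at position -72, and no CACCT. In the Apln window CACCT occurred once, beginning at position -201, and the Cxcl14 window held neither word. Among 32851 promoter windows of the same length, 46.0% held CACCT on some strand, 17.2% held the longer CACCTG, which contains it, and 12.4% held TATAAA. None of the 3 windows held CACCTG. The hypoxia response core ACGTG, found in 16.6% of all windows, was in none of them either. The same was true of the full cyclic AMP response element, spelled TGACGTCA and found in 1.55%. GC content was 44.8% in the Gcg window, 65.2% in the Apln window and 59.6% in the Cxcl14 window, beside a median of 52.4% over all windows.

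Levels are in RPKM, reads scaled to exon length and to mapped reads, as the authors deposited them. Depth, read from the steps between low values, was 25.9 to 27.4 M reads for cKO libraries, 38.7 to 44.1 M for those of mixed wild type and 14.1 to 16.7 M for inbred ones. It thus moved with the group and cannot be told apart from it in any comparison. All 8 lens fibre and 4 lens epithelial markers were present in the inbred list, whereas none was tabulated for cKO and mixed wild type lenses. Zeb2 averaged 5.81 ± 0.59 RPKM in inbred wild type (SD, n = 3) and had no value in the tables used here for the other groups, so the cKO label was not checked against it. Each of the 190 genes differed at least 2.50-fold, in one direction or the other, between cKO and mixed wild type by the authors' normalized values. The cKO against mixed wild type values below are therefore a description, for which no p-value is given. In bulk lens RNA, fewer cells of a type and less RNA per cell cannot be told apart.

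In cKO lenses all 5 genes stood above mixed wild type, in every library. The differences formed a pair near 60-fold (Cxcl14 and Sstr1) and a trio between 3.78-fold and 5.78-fold (Apln, Fam132a and Gcg), by ratios of mean RPKM. All 5 had ranges that did not overlap, which held for 100% of the 190 listed genes, with 54.2% higher in cKO. By limma 99.5% of the 190 were called at an adjusted p under 0.05 and 54.2% were called higher, which says nothing of the 5 since the same contrast chose them. Scaling the libraries over these 190 genes moved log2 fold changes by over 1.5 times under at least 1 method: median centring gave 1.63 for Gcg and 1.02 for Fam132a, and quantile normalization gave 2.16 for Cxcl14 and 1.99 for Sstr1, against 2.51, 1.90, 3.26 and 3.16 unscaled. Gcg was at 2.95 and Fam132a at 1.83 after quantile normalization. All 5 genes also reached the minimum mean of 1 RPKM over the 6 libraries; Apln, Cxcl14 and Sstr1 did so through the cKO libraries and so had to be higher there.

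**Figure D1:**
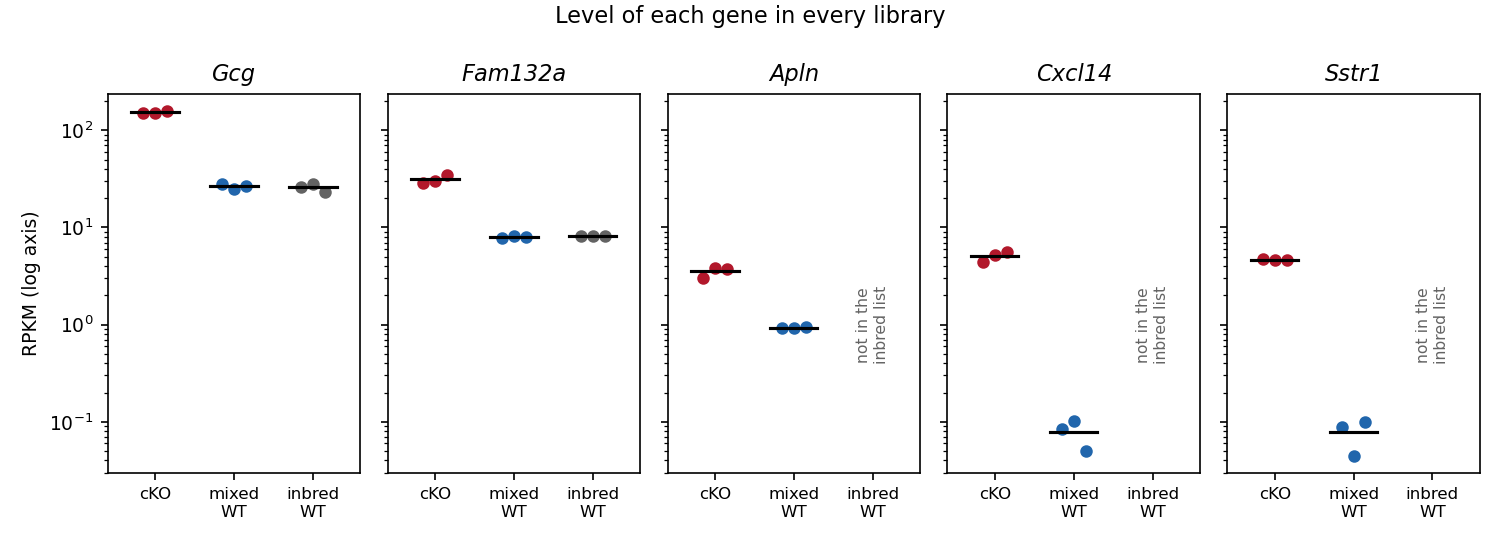
RPKM of each gene on a log axis; points are single libraries (3 per group), bars are group means, and groups run cKO, mixed wild type, inbred wild type. The cKO points lie above all others in each panel, and Gcg and Fam132a have nearly equal levels in mixed and inbred wild type, with means of 26.5 and 25.8 RPKM for Gcg and 7.96 and 8.19 RPKM for Fam132a.

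Gcg, the proglucagon gene, was the most abundant of the 5. Its level was 149, 151 and 159 RPKM in the cKO libraries, against 28.0, 24.8 and 26.6 RPKM in mixed wild type and 26.0, 28.3 and 23.1 RPKM in inbred wild type. The cKO libraries were all at least 5.27 times as high as the highest wild type library, and the wild type groups overlapped. Means were 153 ± 5.27 RPKM in cKO, 26.5 ± 1.64 RPKM in mixed wild type and 25.8 ± 2.60 RPKM in the inbred strain (SD, n = 3 each). That is a ratio of 5.78 for cKO over mixed wild type, with a log2 fold change of 2.51 (SE 0.08) on the log2(RPKM + 0.5) scale, beside a median of 1.37 over the 190 genes. Between 5829 and 6169 reads stood behind each cKO value, 1596 to 1750 behind each mixed wild type value and 488 to 689 behind each inbred value. In cKO lenses Gcg ranked 18 of the 190 by level, against 44 in mixed wild type. Within the inbred lens it ranked 1281 of 7676, above 83.3% of listed genes, whose median was 7.65 RPKM.

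Fam132a, the adipolin gene, was next in level. It had 28.5, 30.1 and 34.9 RPKM in cKO, against 7.70, 8.18 and 7.99 RPKM in mixed wild type and 8.25, 8.08 and 8.23 RPKM in inbred wild type. The highest cKO library was replicate 3, the wild type libraries lay close together, and no cKO library came near them. On average it stood at 31.2 ± 3.37 RPKM in cKO, with mixed wild type at 7.96 ± 0.24 and inbred wild type at 8.19 ± 0.09 RPKM (SD, n = 3 each), and the cKO mean was 3.92 times the mixed wild type mean (log2 fold change 1.90, SE 0.09). Reads per library were 1063 to 1240 in cKO, 407 to 482 in mixed and 159 to 188 in inbred wild type. Its inbred level was above 52.6% of listed genes, so Fam132a was of middle abundance among them. That list held no gene with a mean below 2 RPKM.

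Apln, the apelin gene, was a gene of about 1 RPKM in mixed wild type and was not in the inbred list, whose lowest mean was 2 RPKM. Levels were 3.01, 3.79 and 3.77 RPKM in cKO, against 0.92, 0.93 and 0.95 RPKM in mixed wild type. Replicate 1 was the lowest cKO library, and it was still 3.17 times as high as the highest mixed wild type library. The means of 3.52 ± 0.44 RPKM in cKO and 0.93 ± 0.02 RPKM in mixed wild type (SD, n = 3 each) gave a ratio of 3.78 (log2 fold change 1.48, SE 0.10). That log2 fold change was 0.20 after quantile normalization over the 190 genes and 0.60 after median centring. The 190 genes were listed for their differences and had a median log2 fold change of 1.37. Scaling over them therefore cannot show which of these values is nearer the true one. Among the 8 endothelial markers, the angiopoietin receptor gene Tek was the single marker tabulated for these groups; it had 7.84, 8.61 and 8.49 RPKM in cKO, against 2.80, 2.82 and 2.51 RPKM in mixed wild type. The other endothelial markers of the inbred list had no value in these groups. Their inbred means were 4.88 RPKM for Cdh5, 4.55 for Eng, 4.30 for Cldn5, 2.32 for Kdr and 2.19 for Tie1, beside 2.71 for Tek. Genes tabulated for these groups all differed at least 2.50-fold by the normalized values, so Tek could not appear there unchanged. It was higher in cKO, as Apln was, with a ratio of 3.06. Both measured erythroid markers went the other way, and their summed level was 84.6 to 144 RPKM in cKO, against 398 to 538 RPKM in mixed wild type. The part of these cells in the Apln level was not tested.

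Cxcl14, the chemokine gene, was close to the limit of detection in mixed wild type. It was at 4.42, 5.22 and 5.60 RPKM in cKO, against 0.085, 0.102 and 0.050 RPKM in mixed wild type. All cKO libraries lay far above the others, the lowest of them 43.4 times as high as the highest mixed wild type library. Means were 5.08 ± 0.60 RPKM in cKO and 0.079 ± 0.027 RPKM in mixed wild type (SD, n = 3 each), a ratio of 64.3. The cKO values rested on 221, 246 and 265 reads and the mixed wild type values on 6, 8 and 4 reads. Pooled over libraries and scaled to depth, 732 reads in cKO and 18 in mixed wild type gave a ratio of 64.6, with an exact 95% interval of 40.6 to 110 that covers counting error only. The interval leaves out the spread between replicates. It is no test of a rise, since the same contrast chose the gene. The log2 fold change of 3.26 (SE 0.10) is far below the logarithm of that ratio because 0.5 RPKM was added to every value. Markers of surface ectoderm, an epithelium that can make this chemokine, moved in the same direction: 3 of 6 were tabulated (Krt8, Krt18 and Dsp), with a summed level of 11.0 to 14.9 RPKM in cKO, against 0.76 to 1.22 RPKM in mixed wild type. The other 3, Krt5, Krt14 and Trp63, have no value here, none of the 6 was in the inbred list, and the part of such cells in the Cxcl14 level was not tested. Every gene tabulated for these groups differed at least 2.50-fold by the normalized values, so no marker could appear there unchanged. Of the 190 genes 54.2% were higher in cKO.

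Sstr1, the receptor gene, resembled Cxcl14 in its levels. It had 4.71, 4.65 and 4.65 RPKM in cKO, against 0.088, 0.045 and 0.10 RPKM in mixed wild type. The cKO values were nearly equal and rested on 264, 246 and 247 reads. Their 95% counting intervals, from 4.08 to 5.31 RPKM in all, were far wider than the spread of the 3 values. That spread therefore understates the error of each value. The mixed wild type values rested on 7, 4 and 9 reads, with 95% counting intervals that overlap. Means were 4.67 ± 0.04 RPKM in cKO and 0.078 ± 0.029 RPKM in mixed wild type (SD, n = 3 each), a ratio of 60.1 and a log2 fold change of 3.16 (SE 0.09). From 757 pooled reads in cKO and 20 in mixed wild type the depth-scaled ratio was 60.1, with an exact 95% interval of 38.6 to 99.0. This interval too covers counting error only, leaves out the spread between replicates and is no test of a rise. The intervals of Cxcl14 and Sstr1 overlap across nearly their whole length. In the order of ratios over the 190 genes Cxcl14 was 7 and Sstr1 8, Gcg 44, Fam132a 69 and Apln 73.

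**Figure D2:**
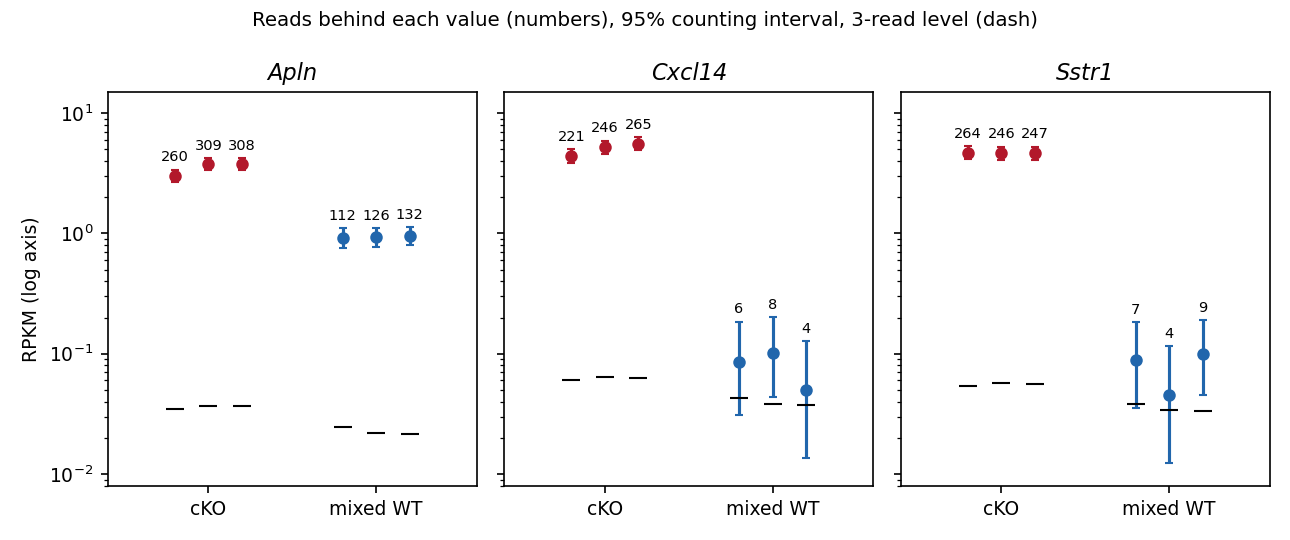
RPKM on a log axis for the 3 genes outside the inbred list, in cKO and mixed wild type libraries; bars are exact 95% counting intervals, numbers are reads and dashes mark the level of 3 reads. Apln rests on 112 or more reads in every library, whereas the mixed wild type values of Cxcl14 and Sstr1 rest on 4 to 9 reads and their lower bounds reach below or near the dash.

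Read numbers for Gcg and Fam132a used the deposited exon lengths of 1494 and 1366 bases. For the other 3 genes the length was taken as the value at which all 6 libraries gave whole reads to within 0.1: 3149 bases for Apln, 1823 for Cxcl14 and 2046 for Sstr1. The same search returned 1494 and 1366 for the genes with a deposited length. For Sstr1 a length of 2054 bases was nearly as good, and some multiples of these lengths would also give whole numbers. No 31-base word of the longest GENCODE M21 transcript of any of the 5 genes occurs in a transcript of another gene, and none of their GENCODE exons overlaps an exon of another gene. Those transcripts had 1088 bases for Gcg, 1315 for Fam132a and 2014 for Sstr1. They were shorter than the lengths used for reads, so part of the sequence of these genes was not checked.

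Replicate 1 was the lowest cKO library for 4 of the 5 genes, all but Sstr1. The coefficient of variation among cKO libraries was 12.6% for Apln, 11.8% for Cxcl14, 10.8% for Fam132a, 3.45% for Gcg and 0.75% for Sstr1. In mixed wild type it was 33.6% for Cxcl14 and 37.2% for Sstr1, and at most 6.18% for the other 3 genes. Sstr1 in cKO, Apln in mixed wild type and Fam132a in inbred wild type varied far less than their 95% counting intervals are wide. Their small SDs therefore do not measure the variation between replicates. The cKO groups of Sstr1, Cxcl14 and Apln came in the order 4.67, 5.08 and 3.52 RPKM, and the ranges of Cxcl14 and Sstr1 overlapped, so these levels did not differ beyond their spread, whereas every Apln library was below every library of both.

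A second deposited quantity, the normalized expression value, has no stated unit and gave the same order of cKO over mixed wild type ratios with smaller sizes. Gcg averaged 5856 ± 190 in cKO and 1189 ± 29.0 in mixed wild type (SD, n = 3 each), a ratio of 4.93. Ratios were 58.1 for Cxcl14, 50.0 for Sstr1, 3.21 for Fam132a and 3.07 for Apln. Each was 0.81 to 0.90 of its ratio in RPKM. Over the 128 genes in all 9 libraries the median normalized value per RPKM and kilobase was 24.5 in cKO and 29.6 in mixed wild type, which is 0.83 of it. The scale of the score thus differed between the groups for most genes, and the members followed it.

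**Figure D3:**
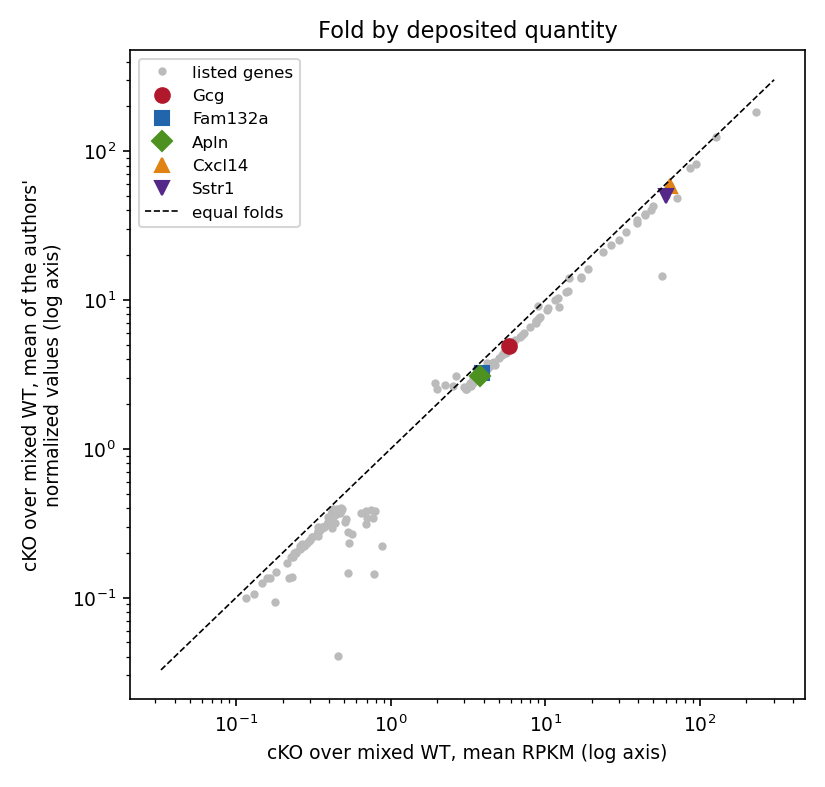
Ratio of cKO over mixed wild type means in RPKM (x) and in the authors' normalized values (y), both on log axes, for the 188 listed genes with a finite ratio above 0 in both, with the 5 genes marked. Gcg (5.78 and 4.93), Fam132a (3.92 and 3.21), Apln (3.78 and 3.07), Cxcl14 (64.3 and 58.1) and Sstr1 (60.1 and 50.0) lie just below the dashed line of equal folds.

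Comparisons with inbred wild type bring in libraries that took no part in the listing, although the cKO or mixed wild type libraries did. The genes were picked with the cKO values in view. The p-values of cKO against inbred wild type are therefore no independent support for a rise in cKO. For cKO against inbred wild type, Gcg and Fam132a were both called higher in cKO by limma with Benjamini-Hochberg adjustment over 128 genes. Of those 128 genes 93.8% were called and 32.8% were called higher in cKO; ranges did not overlap for 93.8%, with 32% higher in cKO. The log2 fold change of Gcg was 2.55 with SE 0.09 (adjusted p = 3.99e-12 by limma), with a ratio of mean RPKM of 5.93, and was higher in 3 of 3 cKO libraries. That of Fam132a was 1.86 with SE 0.11 (adjusted p = 9.54e-10 by limma), with a ratio of 3.81, and was likewise higher in 3 of 3. Over the 128 genes the median log2 fold change was -0.57. The groups also differ in background, floxed alleles, Cre, table type and depth, which cannot be told apart from the loss of Sip1.

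For mixed against inbred wild type neither gene was called. These groups differ in genetic background, and also in the floxed alleles, table type and depth, which cannot be told apart from it. Limma called 0 of the 2 genes after adjustment and 0 at an unadjusted p under 0.05, beside 49.2% of the 128 genes called. For Gcg the log2 fold change was 0.04 with SE 0.10 (adjusted p = 0.743 by limma), and the 95% interval of the ratio ran from 0.88 to 1.20. For Fam132a it was -0.04 with SE 0.08 (adjusted p = 0.694 by limma), with an interval of 0.86 to 1.11. The median of the 128 genes was 0.08. In both genes the library ranges overlapped, while 57% of the 128 genes had ranges that did not. The intervals leave room for differences of up to about those bounds. Under quantile normalization over the 128 genes Gcg was called lower in mixed wild type (log2 fold change -0.31, limma adjusted p = 0.0209).

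**Figure D4:**
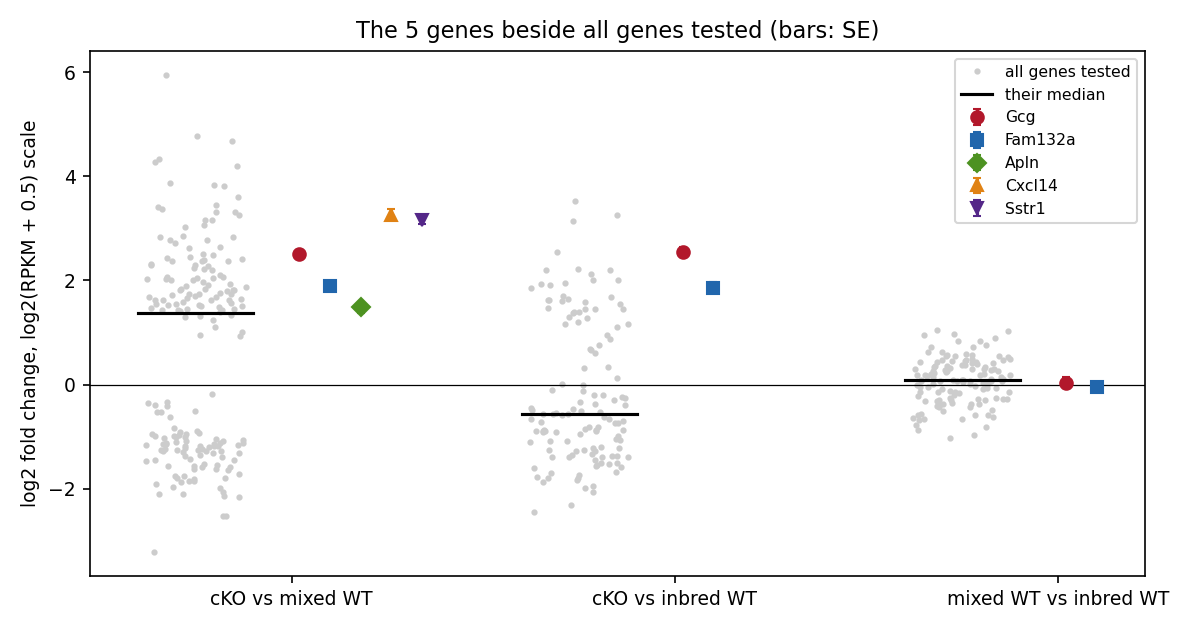
Log2 fold change on the log2(RPKM + 0.5) scale in 3 comparisons; grey points are all genes tested (190, 128 and 128), black lines their medians, and symbols the 5 genes with SE. The symbols lie above 0 in both cKO comparisons, at 1.48 to 3.26 and at 1.86 and 2.55, and at 0 within their error for mixed against inbred wild type.

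The genes most like each member across libraries were found by Pearson's r of log2(RPKM + 0.5). Over all 9 libraries and 128 genes Gcg was most like Crygs, the gamma S-crystallin gene (r = 0.995), then the ubiquitin hydrolase gene Uchl1 (0.994) and Fam132a (0.994). Fam132a was most like Uchl1 (r = 0.997), Gcg (0.994) and Hes6, a gene of the Hes family of transcription factors (0.994). Such values were common: r was above 0.95 for 26 of 127 other genes with Gcg and for 27 of 127 with Fam132a. The other 3 could be compared over 6 libraries only, where 2 clusters of 3 libraries fix r near 1 for any gene with a tight rise: Apln had r above 0.95 with 99 of 189 other genes, Cxcl14 with 99 and Sstr1 with 100. The closest for Apln were Ppp2r2b, a phosphatase subunit gene, the keratin gene Krt8 and the Wnt inhibitor gene Dkk1, each with r of at least 0.999. The closest for Cxcl14 were Sntg2, Ces1e and Lbh, and for Sstr1 the nicotinic receptor gene Chrna4, the semaphorin receptor gene Plxna2 and Aass, an enzyme gene of lysine breakdown. All share their libraries and depth, and the r values are a description.

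The wider pathways could be described in inbred wild type lenses only. Of 157 gene symbols on 7 lists of ligands, receptors and processing enzymes, 34 were in the inbred list and 0 were among the 190. Symbols were matched exactly, so C1qtnf12, the newer name of Fam132a, is not counted although Fam132a was in both. Apart from Fam132a, none has a test against cKO. Of 23 genes around proglucagon 6 were listed, all regulators of transcription, among them Maf at 153 ± 11.7 RPKM (SD, n = 3), Pax6 at 11.3 RPKM and Mafa at 9.63 RPKM. Pax6, Maf and Mafa are known as regulators of genes in lens or pancreatic islet cells. The convertase genes Pcsk1 and Pcsk2 and the receptor genes Gcgr, Glp1r and Glp2r were outside the list, where a gene was below a mean of 2 RPKM or left out by another rule.

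Of 11 genes around apelin 6 were listed, led by Vegfa, the vascular growth factor gene, at 26.4 ± 1.14 RPKM and the hypoxia regulator gene Hif1a at 22.9 ± 2.12 RPKM (SD, n = 3 each); the receptor gene Aplnr was outside. Of 29 chemokine gene symbols 3 were listed: Cx3cl1 at 14.8 ± 0.39 RPKM, Ccl27a at 3.85 ± 0.27 RPKM and the receptor gene Cxcr4 at 3.48 ± 0.06 RPKM. Of 15 genes around somatostatin 5 were listed, with the inhibitory G protein subunit gene Gnai2 at 132 ± 2.80 RPKM and Gnai3 at 26.5 RPKM. The ligand genes Sst and Cort and the other somatostatin receptor genes were outside. Of 17 symbols of CTRP genes and partners 5 were listed, not counting Fam132a, which stands among the 17 as C1qtnf12. They were led by the adiponectin receptor genes Adipor1 (22.6 ± 1.48 RPKM) and Adipor2 (15.7 ± 1.54 RPKM), C1qtnf6 (6.78 RPKM) and the convertase gene Furin (5.71 ± 0.20 RPKM). Fam132a, at 8.19 RPKM, thus lay above C1qtnf6 in that lens by more than the SD of either.

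**Figure D5:**
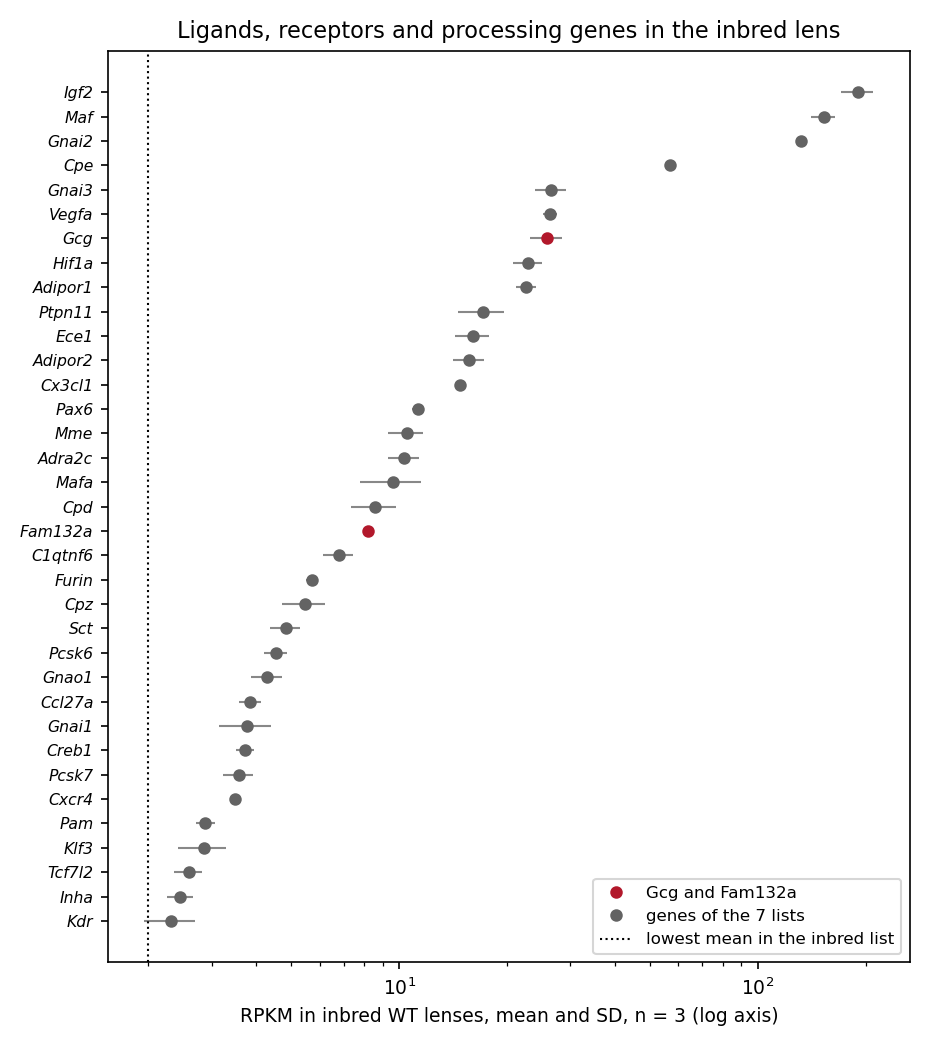
Mean RPKM with SD in inbred wild type lenses (n = 3, log axis) for Gcg and Fam132a and 33 listed genes of the 7 lists, sorted by level. Gcg, at 25.8 RPKM, lies beside Vegfa (26.4) and Gnai3 (26.5), and Fam132a, at 8.19 RPKM, between Cpd (8.56) and C1qtnf6 (6.78); the dotted line is the lowest mean in the inbred list, 2 RPKM.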

How the data were processed

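RNA of pooled lenses (30 per replicate, 3 replicates in each of 3 groups) was sequenced from Illumina TruSeq libraries, per the labels' protocols. The submitters' processing notes name CASAVA 1.8.2; which aligner, annotation or genome build was used was not given in the sources used here. The authors deposited 1 RPKM value and 1 normalized expression score per gene and library, per the file headers, and exon lengths in the inbred files. From the inbred files 24 rows with 12 repeated symbols were left out. Depth and reads were recovered from the steps of RPKM times exon length, which were whole within 0.1 for 100% of the 55 to 60 low values used per library.

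The test was limma (3.58.1, under R 4.3.3) with trended prior variance, run on log2 values of RPKM plus 0.5 over all genes in both tables with a mean of at least 1 RPKM, on the 6 libraries compared, adjusted by Benjamini-Hochberg at 0.05. The script was tested on simulated data. Alternatives were other pseudocounts, filters and scalings, the authors' normalized score, no trend, a joint fit, a replicate block and leaving out each library. The 5 genes, the lists and the rule for named genes (the 5, the 3 most alike for each, and up to 4 list genes of highest inbred level with the members' ligands and receptors) were chosen with earlier results of these data known. One list gene is counted but not reported here. Fam132a was matched to C1qtnf12 by synonym. GENCODE M21 served for sequence sharing and overlaps only. Python 3.11.15, pandas 2.3.3 and scipy 1.17.1 did the rest. PCR duplicates were not marked in the values, so reads may not all be independent. Counting intervals take reads as independent, cover no other error and may be too narrow.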

Additional observations from a re-analysis of the deposited data

How the results depend on the processing

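The higher cKO values of all 5 genes against mixed wild type kept their direction under every alternative that gave a value, and both cKO calls against inbred wild type held under all 15. Those calls reuse the cKO libraries with which the genes were picked. The log2 fold changes against mixed wild type moved beyond the replicate SD as follows, and the cause was not tested except for the added constant. With a pseudocount of 0.1 Apln was at 1.80, Cxcl14 at 4.86 and Sstr1 at 4.76, and with 1 they were at 1.22, 2.49 and 2.40. Under quantile normalization Gcg was at 2.95, Apln at 0.20, Cxcl14 at 2.16 and Sstr1 at 1.99. Under median centring Gcg was at 1.63, Apln at 0.60, Cxcl14 at 2.38, Sstr1 at 2.28 and Fam132a at 1.02. The median of the 190 genes, a list chosen for its differences, was 1.37 unscaled, 0.19 after quantile normalization and 0.49 after median centring. In the authors' normalized values (pseudocount 10) Gcg was at 2.29, Cxcl14 at 4.08, Sstr1 at 4.06 and Fam132a at 1.65. Leaving out each library gave 2.46 to 2.55 for Gcg, 1.43 to 1.58 for Apln, 3.20 to 3.35 for Cxcl14, 3.12 to 3.19 for Sstr1 and 1.82 to 1.96 for Fam132a. Against inbred wild type it left both genes called, and for mixed against inbred wild type 0 called. Under quantile normalization 1 of the 2 genes was called for mixed against inbred wild type, Gcg at -0.31 (limma adjusted p = 0.0209; 0.0209 to 0.975 over its 15 alternatives). Among the 128 genes, limma called 39 higher and 24 lower in mixed than in inbred wild type, against 28 and 29 after quantile normalization and 23 and 37 after median centring.

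Same-numbered libraries did not deviate together between cKO and mixed wild type (r of -0.15 to -0.10 over 190 genes) or between mixed and inbred wild type (-0.52 to -0.15 over 128 genes). Between cKO and inbred wild type r was -0.01, 0.24 and 0.20 for replicates 1, 2 and 3, and replicates 2 and 3 correlated best with their own number, a hint that replicate 1 did not share. The numbers were therefore not taken to pair the libraries. With the replicate block the log2 fold changes were the same, 2.55 for Gcg and 1.86 for Fam132a in cKO against inbred wild type (limma adjusted p = 4.57e-06 and 8.72e-06), and no call of these genes changed. The joint fit gave no value for Apln, Cxcl14 and Sstr1, which have none in inbred wild type. Depth limits the ratios of Cxcl14 and Sstr1, whose mixed wild type values rest on 18 and 20 reads in all.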

Other observations

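Among 49 other peptide hormone genes, 3 were in the inbred list. Igf2, the fetal growth factor gene, was at 190 ± 19.7 RPKM (SD, n = 3), the secretin gene Sct, of the same hormone family as Gcg, at 4.83 ± 0.46 RPKM, and the inhibin alpha gene Inha at 2.46 ± 0.21 RPKM. Gcg, at 25.8 RPKM, was therefore the second of the 4 listed hormone genes by level. Of 13 propeptide processing genes 6 were listed, led by the carboxypeptidase genes Cpe (56.8 ± 1.25 RPKM), Cpd (8.56 ± 1.22 RPKM) and Cpz (5.47 ± 0.75 RPKM), and the convertase gene Pcsk6 (4.53 ± 0.34 RPKM). The granin genes Chga, Chgb and Scg2 were outside it. None of the 9 markers of enteroendocrine and islet cells was in any table. Of the remaining marker lists, 6 of 8 endothelial, 4 of 7 erythroid and 1 of 7 periocular mesenchyme genes were in the inbred list, and 0 of 5 retinal, 0 of 5 neuronal and 0 of 5 macrophage and leukocyte genes. The neuronal gene Elavl4 was tabulated for the other groups, at 0.49 ± 0.16 RPKM in cKO and 2.93 ± 0.25 RPKM in mixed wild type (SD, n = 3 each).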
